A study of Mus musculus with 12 samples.

Results

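The genes described here are 7 matrix metalloproteinases (MMPs; Mmp2, Mmp3, Mmp8, Mmp9, Mmp11, Mmp12 and Mmp14) and 3 tissue inhibitors of metalloproteinases (Timp1, Timp2 and Timp3). They were taken by gene symbol, 10 of the 8251 genes named on the array, and 16 probe sets were annotated to them. RNA came from the lungs of inbred A/J mice, and each of 12 samples was hybridised to its own Affymetrix MG_U74Av2 array. All samples are untreated control lungs from mice given a saline injection, 7 taken 42 weeks and 5 taken 24 to 26 weeks after it. The titles divide them further, with no meaning given, into LZ61 to LZ63 (3 arrays) and LZ22 to LZ25 (4 arrays) at 42 weeks, and AJ1, AJ2 and AJ4 (3 arrays) and LZ2 and LZ3 (2 arrays) at 24 to 26 weeks.

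MMPs are zinc-dependent proteases, most of them secreted as inactive proenzymes, that cut collagens, elastin and other proteins of the extracellular matrix. TIMPs bind the active site of the enzymes and block it, so that matrix turnover depends on the balance of proteases and inhibitors. In the lung, MMPs come from macrophages, neutrophils, fibroblasts and epithelium, and they are known for their part in emphysema, fibrosis and the remodelling around tumours.

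Values are MAS5 signals, a linear intensity for each probe set that the authors had scaled to a 2% trimmed mean of 500.3 on every array. Levels of different probe sets are not on a shared scale, so each was compared only between arrays. Sums over markers, given below, are likewise compared only between arrays and are weighted towards the brightest probe sets. Median signals of the arrays lay between 177.9 and 207.6, and Spearman correlations between pairs of arrays over the 7453 probe sets bright enough to test were 0.887 to 0.979. Sftpc, the surfactant protein of alveolar type 2 cells, was bright on both sets of lungs, with 33700 ± 4352 at 42 weeks (SD, n = 7) and 25780 ± 9348 at 24 to 26 weeks (SD, n = 5). LZ63 stood apart through markers of skeletal muscle and through the squamous epithelium markers Krt4 and Sprr1a. The summed signal of 12 skeletal muscle markers was 65378 on LZ63 and 1119 to 2405 on the other arrays. That of 10 squamous epithelium and cartilage markers was 21042 on LZ63 and 496 to 1044 on the others. Krt4 alone gave 19799.4 of it on LZ63 and read 209.3 to 384 on the others. On every array 7 of the 10 were too dim to test, among them the cartilage markers Col2a1, Acan and Matn1. Col2a1 read 54.5 on LZ63 and 79.3 on LZ24, and Matn1 7.4 on LZ63 and 10.3 on AJ2. Acan was highest on LZ63, at 40.3, with 29.8 on LZ61. No difference is read from cartilage markers this dim. The 4 title ranges were also run on 4 separate days according to the arrays' run records, so title range and run day cannot be told apart. No run day held arrays of both time points, so a difference between time points cannot be told apart from run day either. In bulk tissue, fewer cells of a type and less RNA per cell cannot be told apart.

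Promoters of 4 genes are shown because 3 of them, Mmp12, Mmp3 and Mmp8, lie in 1 cluster of MMP genes on chromosome 9 and spread widely between these lungs or were bright on only a few arrays, while Timp3 had the smallest SD within time points of the 8 tested MMP and TIMP genes. The gene order in the RefSeq annotation of assembly GRCm38.p6 is Mmp12, Mmp1b, Mmp3, Mmp1a, Mmp10 and Mmp8. Each sequence is the plus strand of GRCm38.p6 from RefSeq, 300 bases long, with 250 bases before and 50 after the annotated start of the gene. Capitals mark matches to the AP-1 motif TGANTCA or to the TATA motif TATAAA, both searched on either strand. AP-1 is the Fos and Jun dimer, a known inducer of several MMP genes. The windows are Mmp12 at chr9:7347124-7347423, which is the second of its annotated starts, Mmp3 at chr9:7445572-7445871, Mmp8 at chr9:7558179-7558478 and Timp3 at chr10:86300162-86300461.
Mmp12: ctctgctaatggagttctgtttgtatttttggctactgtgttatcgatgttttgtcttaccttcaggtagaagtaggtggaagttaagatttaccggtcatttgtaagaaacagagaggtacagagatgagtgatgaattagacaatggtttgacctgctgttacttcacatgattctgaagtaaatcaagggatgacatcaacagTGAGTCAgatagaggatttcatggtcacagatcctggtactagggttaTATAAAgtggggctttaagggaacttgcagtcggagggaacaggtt
Mmp3: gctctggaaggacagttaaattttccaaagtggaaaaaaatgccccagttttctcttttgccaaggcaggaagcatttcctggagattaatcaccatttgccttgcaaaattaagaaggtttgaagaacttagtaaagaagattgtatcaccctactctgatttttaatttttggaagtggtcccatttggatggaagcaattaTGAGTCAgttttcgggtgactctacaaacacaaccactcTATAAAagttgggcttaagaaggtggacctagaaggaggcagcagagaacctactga
Mmp8: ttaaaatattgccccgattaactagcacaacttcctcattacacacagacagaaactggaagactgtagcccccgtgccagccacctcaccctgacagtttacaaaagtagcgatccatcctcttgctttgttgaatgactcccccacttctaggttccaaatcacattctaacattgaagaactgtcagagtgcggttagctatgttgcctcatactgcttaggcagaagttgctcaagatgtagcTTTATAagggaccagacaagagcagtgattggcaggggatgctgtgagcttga
Timp3: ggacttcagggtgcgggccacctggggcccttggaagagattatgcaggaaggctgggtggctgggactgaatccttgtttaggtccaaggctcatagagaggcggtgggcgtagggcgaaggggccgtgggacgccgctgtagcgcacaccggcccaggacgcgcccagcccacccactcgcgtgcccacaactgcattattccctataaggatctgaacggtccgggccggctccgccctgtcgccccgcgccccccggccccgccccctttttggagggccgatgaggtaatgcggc
The AP-1 match began 44 bases before the start in Mmp12 and 46 bases before it in Mmp3, and in both the letters were TGAGTCA. In each, a TATA match followed, 7 bases before the start in Mmp3 and just past the annotated start in Mmp12. Mmp8 had only a TATA match, on the minus strand, and Timp3 had neither. Windows were found for 8 of the 10 genes, 9 windows in all because Mmp12 has 2. AP-1 matched 2 of the 9 and TATA 3, against 7.8% and 13.6% of 32851 mouse windows of the same length. The other Mmp12 window and those of Mmp11, Mmp14, Timp1 and Timp2 held neither. Timp1 had an SD of log2 signal within time points of 0.56, close to the 0.59 of Mmp3. GC content was 38.7% to 46.0% in the windows of the 3 genes on chromosome 9 and 67.0% in Timp3, where the median of all windows is 52.7%. It was 67.0% in Mmp11, 68.7% in Timp2, 56.0% in Mmp14 and 55.0% in Timp1. A match describes letters only, and binding was not measured.

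Mmp12 encodes macrophage elastase, a secreted protease of macrophages that cuts elastin and is required for smoke-induced emphysema in mice. The probe set 95339_r_at read 995.1, 274.9 and 322.4 on LZ61, LZ62 and LZ63, and 582.4, 925.9, 799.3 and 1019.6 on LZ22, LZ23, LZ24 and LZ25. At 24 to 26 weeks it read 2035.6, 578.1 and 676.3 on AJ1, AJ2 and AJ4, and 151.5 and 116.5 on LZ2 and LZ3. AJ1 was the highest of all arrays and LZ2 and LZ3 were the lowest, a 17.47-fold range, so the 24 to 26 week lungs enclosed every 42 week value. Means were 702.8 ± 312.8 at 42 weeks (SD, n = 7) and 711.6 ± 781 at 24 to 26 weeks (SD, n = 5). On the log2 scale the difference, 42 weeks minus 24 to 26 weeks, was 0.56 with a 95% interval of -0.98 to 2.10 (limma adjusted p = 0.758). It was -0.56 against the AJ arrays alone (adjusted p = 0.598) and 2.24 against LZ2 and LZ3 alone (adjusted p = 0.766).

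**Figure D1:**
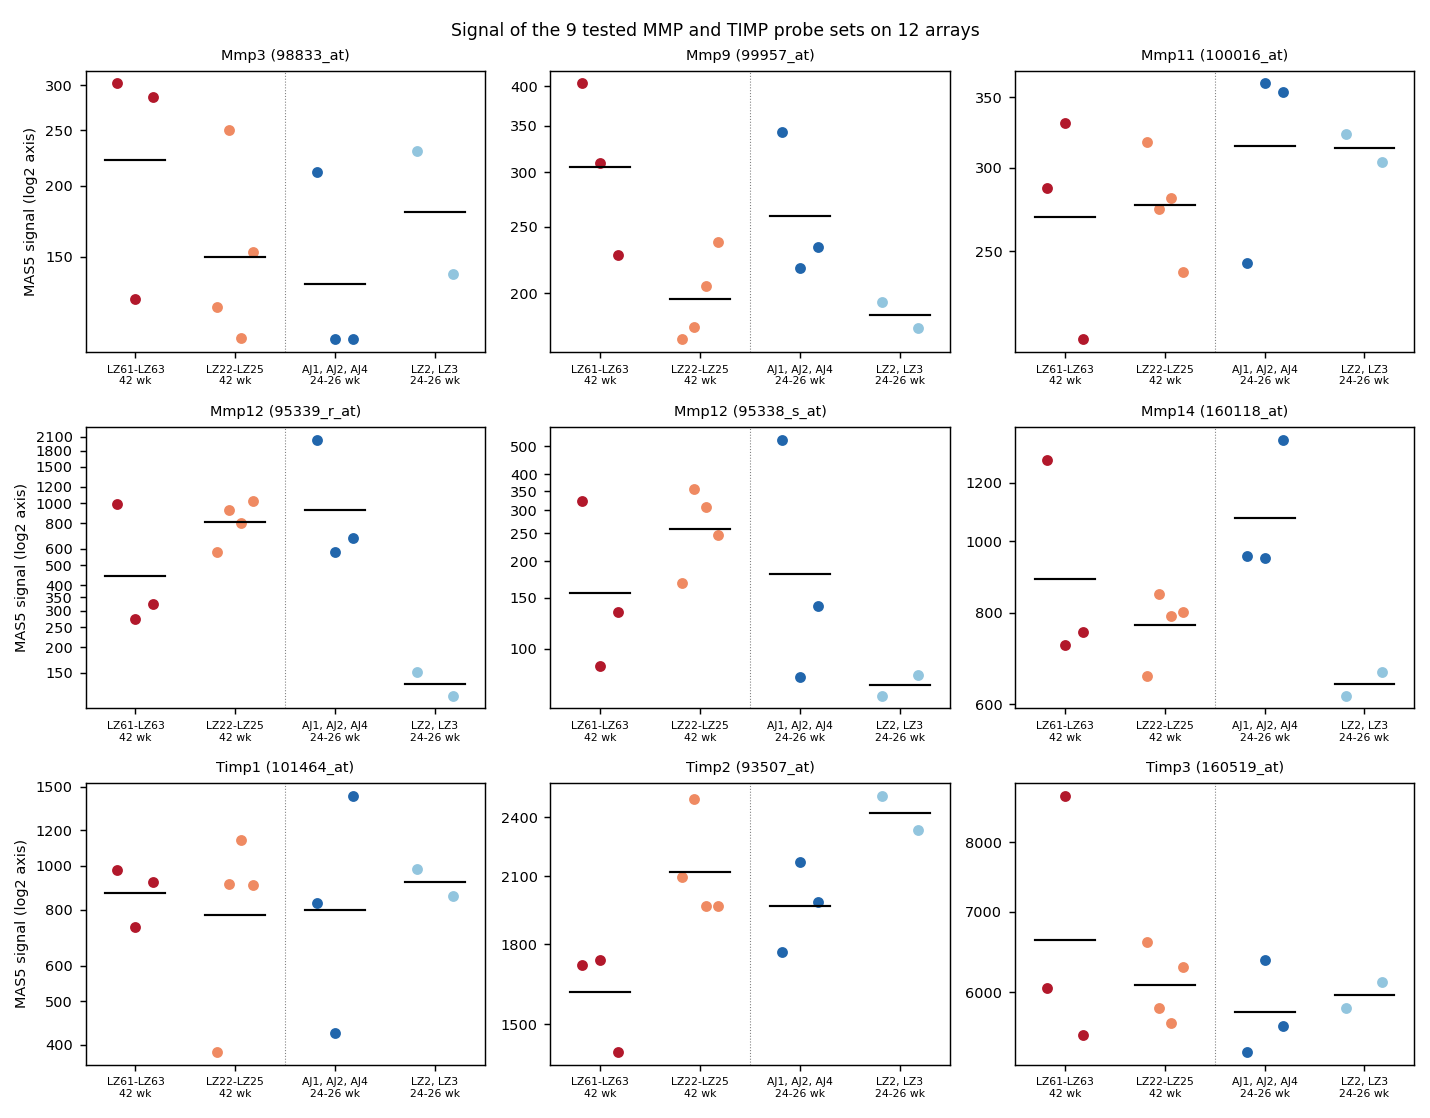
MAS5 signal (linear intensity, log axis) of the 9 tested MMP and TIMP probe sets on each of the 12 arrays, 42 week lungs at the left of each panel and 24 to 26 week lungs at the right, with points for arrays and bars for the geometric mean of each title range. The Mmp12 probe set 95339_r_at reaches 2035.6 on AJ1 and 116.5 on LZ3, while Timp3 stays between 5351.7 and 8746.6.

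Within the 24 to 26 week lungs, Mmp12 averaged 1097 ± 814.6 in AJ lungs (SD, n = 3) and 134 ± 24.75 in LZ2 and LZ3 (SD, n = 2), and the arrays did not overlap. The difference, AJ minus LZ, was 2.80 on the log2 scale (SE 0.63, 95% interval 1.40 to 4.21), a 6.98-fold ratio of geometric means, and the limma adjusted p was 0.0518, which missed the 5% threshold. Without AJ1 the difference was 2.23 (adjusted p = 0.07). The adjusted p lay between 0.023 and 0.276 over 20 alternative settings, and 5 of them passed 5%. The second probe set, 95338_s_at, read 527, 80 and 140.5 on the AJ arrays and 68.8 and 81.2 on LZ2 and LZ3. These arrays overlapped, since AJ2 lay below LZ3, and the difference was 1.28 with an interval of -0.36 to 2.91 (limma adjusted p = 0.406). At 42 weeks it read 86.8 to 356.4. Within the 42 week lungs, 95339_r_at averaged 530.8 ± 402.8 in LZ61 to LZ63 (SD, n = 3) and 831.8 ± 189.2 in LZ22 to LZ25 (SD, n = 4), a log2 difference of -0.87 with an interval of -2.05 to 0.30 (limma adjusted p = 0.386).

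Macrophage markers stand beside these values. Of 20 markers, 14 were on the array, and none was under a signal of 108 on every array. Their summed signal was 21151 to 25344 in AJ lungs and 21841 to 22039 in LZ2 and LZ3, and 0 of 13 tested markers passed in that comparison, with a median log2 difference of -0.08. Lyz2 alone gave 7927.4, 8446.1 and 8457 of it on AJ1, AJ2 and AJ4 and 8988.3 and 10190.3 on LZ2 and LZ3. Chil3, a chitinase-like protein of alveolar macrophages, read 5723.7, 2069.8 and 2591.6 on AJ1, AJ2 and AJ4 and 1319.3 and 1213.4 on LZ2 and LZ3, the same separation as Mmp12, but its difference did not pass (1.31, limma adjusted p = 0.32). Marco, a scavenger receptor of macrophages, lay on the other side, with 134.8 ± 48.54 in AJ lungs (SD, n = 3) and 264.6 ± 88.6 in LZ2 and LZ3 (SD, n = 2; limma adjusted p = 0.31). At 42 weeks the summed signal was 19227 to 23143 in LZ61 to LZ63 and 22515 to 28629 in LZ22 to LZ25. Cd68, a lysosomal glycoprotein of macrophages, fell to 757.5 ± 269 in LZ61 to LZ63 (SD, n = 3), against 1438 ± 201.6 in LZ22 to LZ25 (SD, n = 4; log2 difference -0.98, limma adjusted p = 0.045), as 1 of 13 tested markers with a list median of -0.49. The call was lost in 16 of 20 alternative settings, with adjusted p between 0.025 and 0.148, and the difference was -0.66 without LZ63 (adjusted p = 0.0586). The part of macrophage number in the Mmp12 values was not tested.

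Mmp3, stromelysin 1, cuts proteoglycans, laminin and fibronectin and activates other proMMPs. Its probe set 98833_at read 302, 126.6 and 285.8 on LZ61 to LZ63 and 122.7, 250.3, 108.1 and 153.2 on LZ22 to LZ25. At 24 to 26 weeks it read 211, 107.6 and 107.8 on AJ1, AJ2 and AJ4 and 230.3 and 140.2 on LZ2 and LZ3. High and low arrays occurred in every title range. The time difference was 0.23 (95% interval -0.41 to 0.88, limma adjusted p = 0.765). The difference was -0.42 for AJ minus LZ (-1.40 to 0.57) and 0.56 for LZ61 to LZ63 minus LZ22 to LZ25 (-0.26 to 1.39), with limma adjusted p of 0.70 and 0.426.

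Mmp11, stromelysin 3, is a fibroblast MMP that furin activates inside the cell and that acts weakly on matrix proteins. It read 287.3, 331.1 and 206.1 on LZ61, LZ62 and LZ63 and 317.7, 274.4, 281 and 238.6 on LZ22 to LZ25. It read 243.4, 360.9 and 354.5 on AJ1, AJ2 and AJ4 and 323 and 304.2 on LZ2 and LZ3. LZ63 was the lowest and AJ2 the highest, and the time points overlapped. Means were 276.6 ± 43.23 at 42 weeks (SD, n = 7) and 317.2 ± 47.3 at 24 to 26 weeks (SD, n = 5), a log2 difference of -0.20 with an interval of -0.51 to 0.11 (limma adjusted p = 0.543). The difference kept its sign under all 25 alternative settings run, between -0.292 and -0.132, and passed under none.

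Mmp9, gelatinase B, is stored in neutrophil granules and made by macrophages, and it cuts denatured collagen and basement membrane. Its probe set 99957_at read 403.5, 309.5 and 227.4 on LZ61, LZ62 and LZ63 and 171.5, 178.5, 205 and 237.2 on LZ22 to LZ25. It read 343.2, 217.4 and 233.3 on AJ1, AJ2 and AJ4 and 194.6 and 178.3 on LZ2 and LZ3. LZ61 and AJ1 were the highest in their time points, which overlapped throughout, and the time difference was 0.06 (-0.40 to 0.53, limma adjusted p = 0.929). At 42 weeks it averaged 313.5 ± 88.12 in LZ61 to LZ63 (SD, n = 3) and 198 ± 29.82 in LZ22 to LZ25 (SD, n = 4), a difference of 0.64 (SE 0.22, interval 0.16 to 1.11) that missed the threshold (limma adjusted p = 0.141). Without LZ63 that difference was 0.85 (adjusted p = 0.0773), and without LZ61 it was 0.43 (adjusted p = 0.307). AJ lungs averaged 264.6 ± 68.5 (SD, n = 3) and LZ2 and LZ3 186.4 ± 11.53 (SD, n = 2), without overlap, a difference of 0.48 (-0.09 to 1.04, limma adjusted p = 0.369). A dim second probe set, 162369_f_at, read 1.4 to 38.1 at 42 weeks and 16.7 to 35.3 at 24 to 26 weeks.

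Neutrophil markers differed from each other in which arrays were highest. Of 15 markers, 12 were on the array, and Mpo and Prtn3 were under 108 on every array. The summed signal was 12661, 7232 and 4274 on LZ61, LZ62 and LZ63 and 3141 to 6641 on LZ22 to LZ25, and it was 8188 on AJ1, 3635 on AJ2, 4131 on AJ4, and 3927 to 4827 on LZ2 and LZ3. The sums were highest on LZ61 and AJ1, the arrays with the most Mmp9 signal in their time points. S100a8 and S100a9, a pair of calcium-binding proteins of neutrophils and other myeloid cells, made up much of them, with 5722.1 and 3922.4 on LZ61 and 2343.5 and 2089.2 on AJ1. Some other markers were highest elsewhere. Csf3r, the receptor for the growth factor of neutrophils, was highest on LZ62 at 845 and on AJ4 at 766.6. Camp, a granule peptide, was highest on LZ24 at 439.5 and on AJ4 at 232.7. Ltf, lactoferrin, was highest on LZ63 at 2081 and on LZ3 at 418.6. Thus the arrays with the most Mmp9 signal were not the highest for these 3 markers. Cxcr2, like S100a8 and S100a9, was highest on both, at 128.6 on LZ61 and 77.2 on AJ1. Elane and Prtn3 were highest on LZ61 and AJ4, and Mpo on LZ62 and AJ4. Ngp was highest on LZ24 and AJ1, and Itgam on LZ24 and LZ2. Lcn2, a granule protein, was highest on LZ23 at 1753 and on AJ1 at 2209. Lcn2 averaged 584.6 ± 419.9 in LZ61 to LZ63 (SD, n = 3) and 1185 ± 430.6 in LZ22 to LZ25 (SD, n = 4), a difference of -1.17 (limma adjusted p = 0.33). None of the 6 tested neutrophil markers passed in any comparison, with list medians of 0.66 for LZ61 to LZ63 minus LZ22 to LZ25 and 0.17 for AJ minus LZ. Their part in the Mmp9 values was not tested.

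The other gelatinase, Mmp2, which stromal cells make and Mmp14 activates, was dim. Its probe set 161509_at read 25.6, 11.2 and 27.6 on LZ61, LZ62 and LZ63 and 9.2, 40.2, 5.9 and 14.4 on LZ22 to LZ25. It read 8.1, 20.1 and 46.7 on AJ1, AJ2 and AJ4 and 22 and 10.2 on LZ2 and LZ3. The other, 95663_at, read 7.5 to 41.9 at 42 weeks and 4.5 to 25.9 at 24 to 26 weeks. Both were under the filter on every array, where MAS5 values are noisy. No difference is read from them.

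Mmp8, neutrophil collagenase, cuts fibrillar collagens and is stored in neutrophil granules. Its only probe set, 94769_at, read 27.3, 25.2 and 10.6 on LZ61 to LZ63 and 23.4, 26.5, 17 and 26.9 on LZ22 to LZ25. It read 186.7, 36.2 and 110.7 on AJ1, AJ2 and AJ4 and 38.3 and 22.8 on LZ2 and LZ3. AJ1 and AJ4 alone passed 108, the mean signal that a probe set needed to be tested, and LZ3 lay within the 42 week values. Mmp8 therefore stayed outside the main test. In a fit of all probe sets without that filter its time difference was -1.44 (SE 0.48, interval -2.47 to -0.41), with an adjusted p of 0.282 by limma and an unadjusted p of 0.00758 in an exact permutation test over all splits of the arrays. Its AJ minus LZ difference in that fit was 1.62 (0.18 to 3.06, limma adjusted p = 0.286). In the exact permutation test the dim Timp2 probe set 160116_at had a smaller unadjusted p, 0.00631. No time difference is read from either probe set. The neutrophil marker sums were highest on LZ61, where Mmp8 read 27.3, and on AJ1, where it read 186.7, and their part in the Mmp8 values was not tested.

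**Figure D2:**
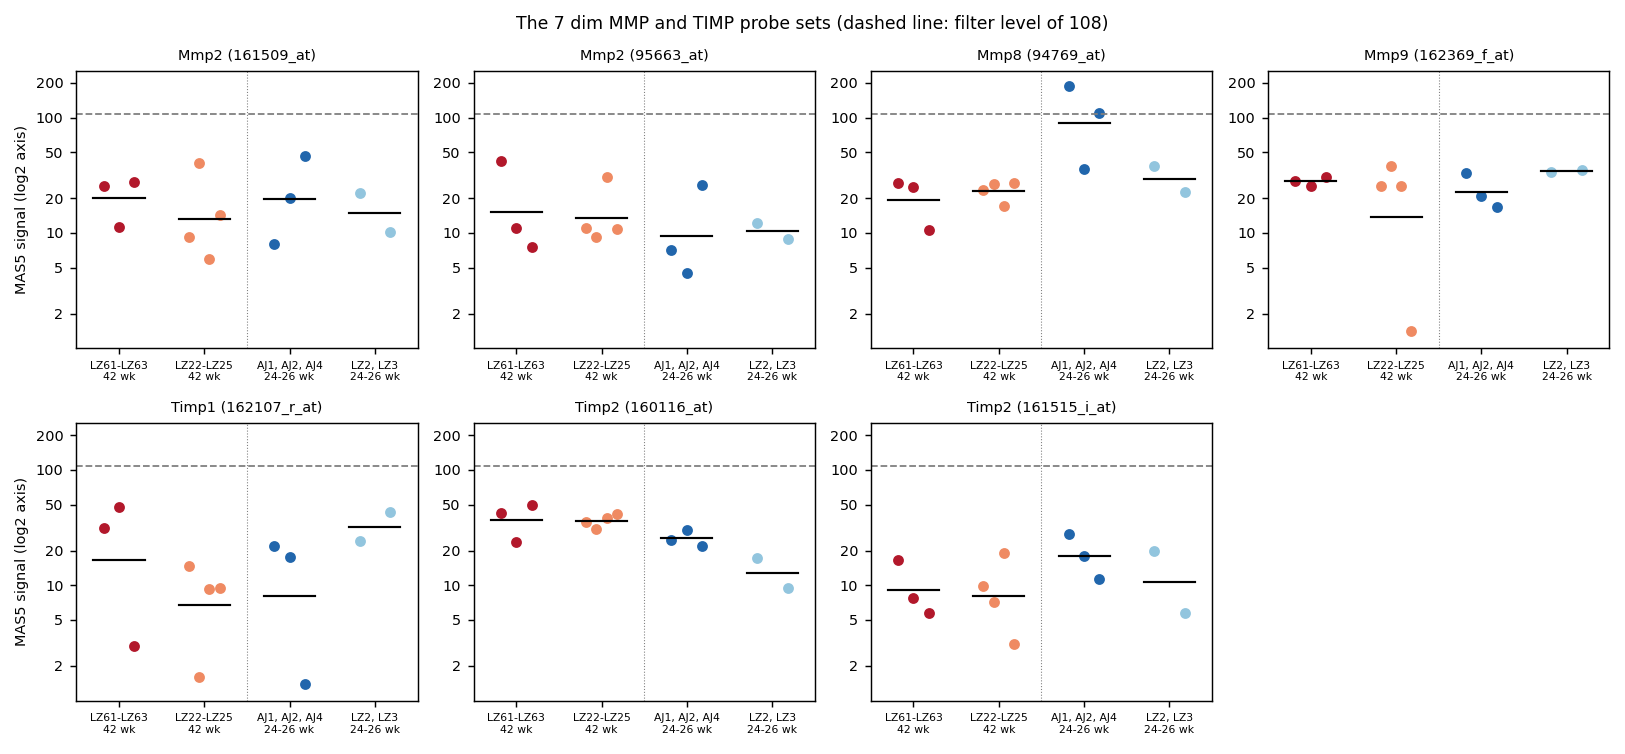
MAS5 signal (linear intensity, log axis) of the 7 MMP and TIMP probe sets under the filter on each array, 42 week lungs at the left and 24 to 26 week lungs at the right, with a dashed line at 108. Mmp8 on AJ1 (186.7) and AJ4 (110.7) are the points above the line.

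Mmp14, the membrane-anchored MT1-MMP, cuts collagen at the cell surface and activates proMMP2 with Timp2 as a bridge. Its probe set 160118_at read 1289.6, 722.8 and 753 on LZ61, LZ62 and LZ63 and 656.2, 848.4, 790.4 and 801.3 on LZ22 to LZ25. It read 955.5, 948.9 and 1374.2 on AJ1, AJ2 and AJ4 and 617 and 664.6 on LZ2 and LZ3. AJ4 and LZ61 stood highest, and each AJ array was above both LZ arrays of its time point. AJ lungs averaged 1093 ± 243.7 (SD, n = 3) and LZ2 and LZ3 640.8 ± 33.66 (SD, n = 2), a log2 difference of 0.75 (SE 0.24, interval 0.24 to 1.26) that missed the threshold (limma adjusted p = 0.117). Means were 837.4 ± 208.6 at 42 weeks (SD, n = 7) and 912 ± 302.1 at 24 to 26 weeks (SD, n = 5), a difference of -0.09 (-0.51 to 0.32, limma adjusted p = 0.868). Its sign turned to 0.36 against LZ2 and LZ3 alone. The difference of LZ61 to LZ63 minus LZ22 to LZ25 was 0.21 (-0.22 to 0.63, limma adjusted p = 0.599), and it was -0.06 without LZ61.

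Among the inhibitors, Timp1 is secreted, is induced by cytokines in inflamed tissue and inhibits Mmp14 poorly. Its probe set 101464_at read 979.8, 732.3 and 923 on LZ61 to LZ63 and 385.9, 912.3, 1143.4 and 907.7 on LZ22 to LZ25. It read 826.9, 425.8 and 1432.8 on AJ1, AJ2 and AJ4 and 985.5 and 858.4 on LZ2 and LZ3. LZ22 and AJ2 were low and AJ4 high, and every pair of title ranges overlapped. Means were 854.9 ± 239.6 at 42 weeks (SD, n = 7) and 905.9 ± 361.6 at 24 to 26 weeks (SD, n = 5), a difference of -0.05 (-0.69 to 0.60, limma adjusted p = 0.966). The sign of this difference turned under 7 of 26 alternative settings. A dim second probe set, 162107_r_at, read 1.6 to 47.3 at 42 weeks and 1.4 to 43.2 at 24 to 26 weeks.

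Timp2 is made steadily by stromal cells and takes part in the activation of proMMP2 as well as in inhibition. Its probe set 93507_at read 1715.3, 1736.1 and 1409.6 on LZ61 to LZ63 and 2096, 2501, 1960.3 and 1961.6 on LZ22 to LZ25, without overlap. It read 1765.9, 2166.8 and 1981.9 on AJ1, AJ2 and AJ4 and 2520.3 and 2330.1 on LZ2 and LZ3, also without overlap. The mean was 1620 ± 182.8 in LZ61 to LZ63 (SD, n = 3) and 2130 ± 255.6 in LZ22 to LZ25 (SD, n = 4), a difference of -0.39 (SE 0.12, interval -0.66 to -0.13, limma adjusted p = 0.108). With arrays set to equal medians the difference was -0.47 and passed (adjusted p = 0.0393), and without LZ63 it was -0.30 (adjusted p = 0.23), within a range of adjusted p from 0.0393 to 0.23 over 20 settings. AJ lungs averaged 1972 ± 200.7 (SD, n = 3) and LZ2 and LZ3 2425 ± 134.5 (SD, n = 2), a difference of -0.30 (-0.62 to 0.01, limma adjusted p = 0.303). The time difference was -0.18 (-0.46 to 0.10, limma adjusted p = 0.55), and its sign held under all 26 settings. Timp2 has 2 further probe sets that were under the filter on every array. In the fit without the filter the time difference was 0.91 for 160116_at, which read 23.8 to 49.3 at 42 weeks and 9.5 to 30.4 at 24 to 26 weeks (limma adjusted p = 0.34). It was -0.78 for 161515_i_at, which read 3.1 to 19 at 42 weeks and 5.8 to 27.7 at 24 to 26 weeks (limma adjusted p = 0.598). Neither passed, and no direction is read from values this dim.

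Timp3 binds to the matrix, inhibits ADAM proteases as well as MMPs, and its loss enlarges the airspaces of mice. Its probe set 160519_at read 6050.1, 8746.6 and 5521.9 on LZ61 to LZ63 and 6605.4, 5820, 5653.3 and 6300.9 on LZ22 to LZ25. It read 5351.7, 6383.4 and 5625.7 on AJ1, AJ2 and AJ4 and 5820.2 and 6121.6 on LZ2 and LZ3. LZ62 stood above the rest, which overlapped closely. Means were 6385 ± 1106 at 42 weeks (SD, n = 7) and 5861 ± 405.3 at 24 to 26 weeks (SD, n = 5), a difference of 0.11 (-0.13 to 0.35, limma adjusted p = 0.679). This was the narrowest interval among the 9 tested probe sets. The differences between title ranges were -0.05 for AJ minus LZ and 0.13 for LZ61 to LZ63 minus LZ22 to LZ25 (limma adjusted p = 0.924 and 0.652).

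Across the group, 9 probe sets for 8 genes were bright enough to test. Limma, adjusted by Benjamini-Hochberg over the 7453 probe sets that were tested, called 0 of the 9 at 42 weeks against 24 to 26 weeks, where it called 0.0805% of all (2 higher, 4 lower). None of the 9 had an unadjusted p under 0.05, which 14.7% of all probe sets had, and their exact permutation p values began at 0.173. Between AJ and LZ lungs 0 of 9 were called, against 2.5% of all, and Mmp12 (95339_r_at) and Mmp14 were the 2 under an unadjusted 0.05, which 17.9% of all were. Between LZ61 to LZ63 and LZ22 to LZ25 again 0 of 9 were called, against 1.5% of all, and Mmp9 and Timp2 were the 2 under 0.05, against 19.8%. Arrays did not overlap for 0 of 9 between the time points (1.5% of all), 4 of 9 between AJ and LZ (41.1% of all) and 1 of 9 between LZ61 to LZ63 and LZ22 to LZ25 (16% of all), so these counts are near what all probe sets show. Median log2 differences of the 9 were 0.06, 0.01 and 0.13 in the 3 comparisons, against -0.04, 0.04 and -0.01 over all tested probe sets. A missed threshold does not show equal levels: the intervals above allow time differences of up to 2.10 for Mmp12 and of 0.35 for Timp3.

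**Figure D3:**
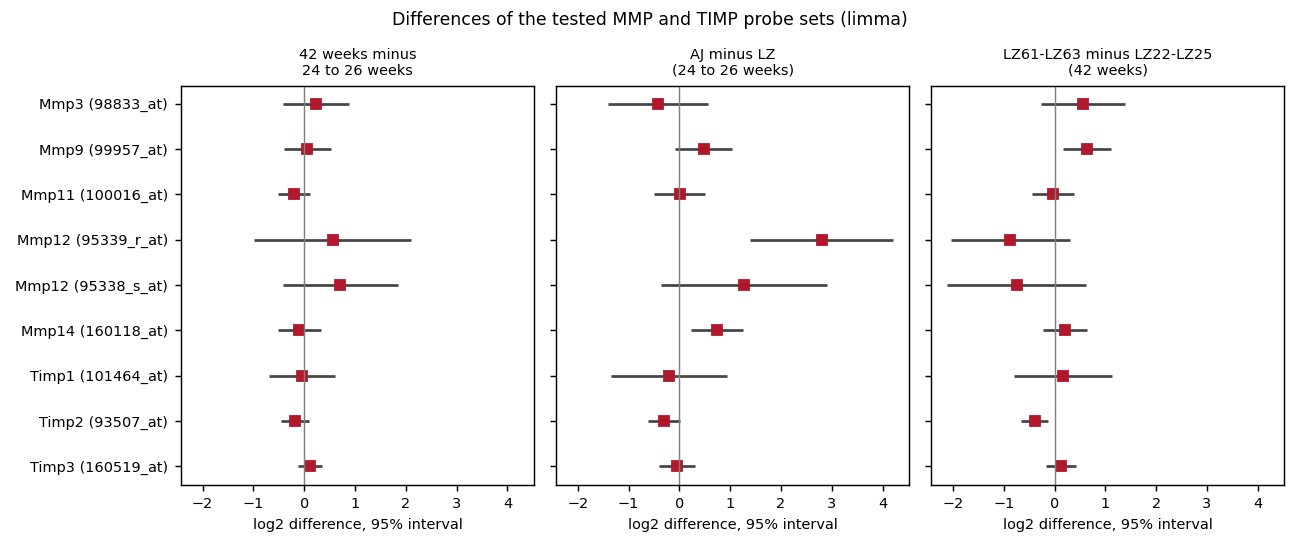
Log2 differences with 95% intervals from limma for the 9 tested probe sets, in 3 panels for 42 weeks minus 24 to 26 weeks, AJ minus LZ, and LZ61 to LZ63 minus LZ22 to LZ25. The Mmp12 probe set 95339_r_at lies farthest from 0 in the AJ minus LZ panel, at 2.80 with an interval of 1.40 to 4.21, and no probe set passed 5% false discovery in any panel.

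The genes differed from each other in how much they spread among lungs of the same time point. Percentiles are over all tested probe sets, whatever their signal. Mmp3 read 107.6 to 302 and the Mmp12 probe set 95338_s_at 68.8 to 527, in part under the filter signal of 108. Timp3 read 5351.7 to 8746.6. MAS5 makes low values noisy, and the part of signal level in these spreads was not tested. The SD of log2 signal within time points was 1.23 for Mmp12 (95339_r_at), at the 99.3 percentile of all tested probe sets, and 0.97 for its second probe set, at the 98.5 percentile. Mmp3 followed with 0.59 (percentile 94.4) and Timp1 with 0.56 (93.8), then Mmp9 with 0.41 (85.3) and Mmp14 with 0.38 (81.9). Timp2 at 0.24 (44.4), Mmp11 at 0.23 (42.6) and Timp3 at 0.19 (23.0) lay below the median of 0.25. Within run days the SD of 95339_r_at was 0.75 (percentile 97.4), that of Timp1 0.62 (96.0), that of Timp3 0.20 (41.0) and that of Timp2 0.15 (21.8), the smallest of the 9 probe sets.

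**Figure D4:**
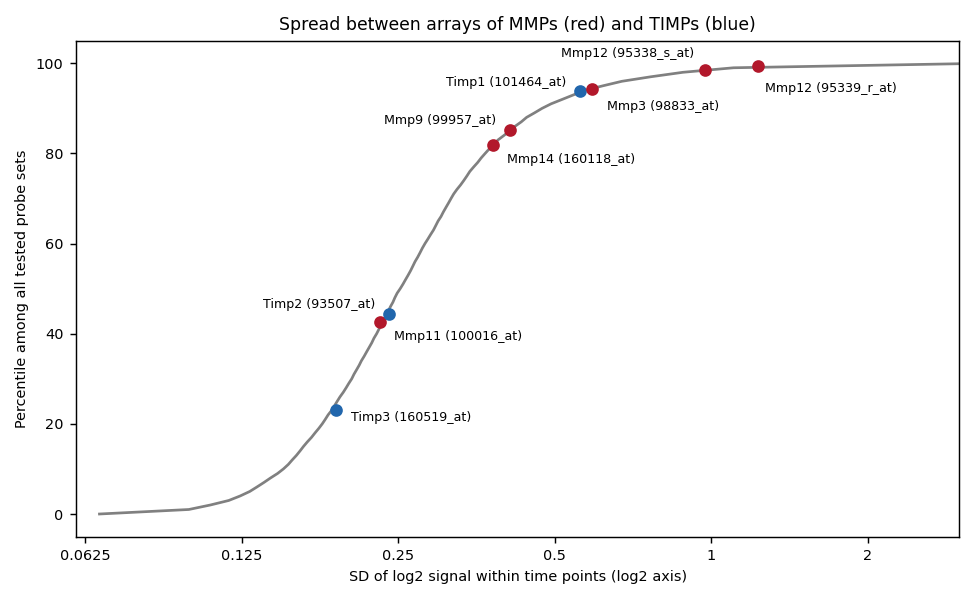
SD of log2 signal within time points for all 7453 tested probe sets, drawn as a curve by percentile, with the 9 MMP and TIMP probe sets as labelled points. The Mmp12 probe sets sit at percentiles 99.3 and 98.5 and Timp3 at 23.0.

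Over the 12 arrays, which share run days and scaling, the Mmp12 probe sets followed each other with a Spearman rho of 0.89. Mmp12 (95339_r_at) and Mmp14 had a rho of 0.69, Mmp9 and Mmp14 0.62, and Mmp9 and Timp2 -0.73. Mmp3 and Mmp11 had -0.64 and Timp1 and Timp3 -0.62. Among all tested genes, the patterns most like the MMPs by rho over the same 12 arrays were Psma5 (0.87) and Trabd (0.85) for Mmp12 95339_r_at, H2-M2 (0.89) and Fcgr2b (0.87) for Mmp12 95338_s_at, Tgm2 (0.92) and Neurl4 (0.85) for Mmp9, and Mlec (0.87) and Mtpn (0.85) for Mmp14. For Mmp3 they were Coq9 (0.88) and Rhou (0.87), and for Mmp11 Stk24 (0.97) and Tmeff2 (0.92). For the inhibitors they were Acp1 (0.83) and Phospho2 (0.78) for Timp1, Tiprl (0.94) and Glo1 (0.93) for Timp2, and Ctdsp2 (0.89) and Clic3 (0.87) for Timp3. The highest among all tested genes are chosen in each case, so these are descriptions with no test.

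Other genes of the pathway gave few calls. Of 16 other MMPs, 6 were on the array and none was bright enough to test. Mmp7, Mmp10, Mmp13, Mmp16 and Mmp24 were under 108 on every array, and Mmp17, a membrane-anchored MMP, read 45.0 to 135.9. Among other inhibitors, Reck, a membrane-anchored MMP inhibitor, averaged 1161 ± 226.3 at 42 weeks (SD, n = 7) and 1359 ± 134.8 at 24 to 26 weeks (SD, n = 5), and neither it nor Spock2 passed in any comparison. None of 6 tested ADAM and ADAMTS proteases passed. The nearest was Adam10, a sheddase of membrane proteins, with 842.1 ± 18.69 in AJ lungs (SD, n = 3) and 566 ± 26.73 in LZ2 and LZ3 (SD, n = 2; log2 difference 0.57, limma adjusted p = 0.063).

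Of 11 tested genes of MMP activation and the plasmin system, 1 passed in 1 comparison. Lrp1, the endocytic receptor that clears MMP and TIMP complexes, rose to 1780 ± 341.5 in LZ61 to LZ63 (SD, n = 3), against 1075 ± 166.6 in LZ22 to LZ25 (SD, n = 4), by 0.72 on the log2 scale (limma adjusted p = 0.037). Its arrays did not overlap, with 1521.3 to 2167.3 in LZ61 to LZ63 and 968.1 to 1322.9 in LZ22 to LZ25. The call was lost in 13 of 20 alternative settings, with adjusted p between 0.0275 and 0.131 and a difference between 0.57 and 0.83, and without LZ63 it was 0.77 (adjusted p = 0.0513). Furin, which activates Mmp11 and Mmp14, averaged 1710 ± 336.7 in AJ lungs (SD, n = 3) and 1312 ± 78.7 in LZ2 and LZ3 (SD, n = 2; limma adjusted p = 0.27).

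None of the 16 tested matrix substrates passed. Eln, the elastin that Mmp12 cuts, averaged 1693 ± 545.6 in AJ lungs (SD, n = 3) and 2955 ± 381.3 in LZ2 and LZ3 (SD, n = 2), a difference of -0.84 (limma adjusted p = 0.053). The list median was -0.22 in that comparison, against 0.04 over all tested probe sets. Of 16 tested signals and factors that induce MMP genes none passed either. Jund, an AP-1 subunit, averaged 6900 ± 717.3 in AJ lungs (SD, n = 3) and 13570 ± 5199 in LZ2 and LZ3 (SD, n = 2; difference -0.93, limma adjusted p = 0.052). Junb, another subunit, averaged 1044 ± 134.4 at 42 weeks (SD, n = 7) and 693.3 ± 247.4 at 24 to 26 weeks (SD, n = 5; difference 0.65, limma adjusted p = 0.14). At 24 to 26 weeks Junb averaged 544.4 ± 126 in AJ lungs (SD, n = 3) and 916.7 ± 216.2 in LZ2 and LZ3 (SD, n = 2; difference -0.76, limma adjusted p = 0.088).

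Of the cell types that make MMPs or their inhibitors, none of 16 tested fibroblast and mesenchyme markers and none of 11 tested endothelial markers passed in any comparison. Mfap4, a microfibril protein, averaged 2802 ± 585.5 at 42 weeks (SD, n = 7) and 4683 ± 885.5 at 24 to 26 weeks (SD, n = 5; difference -0.75, limma adjusted p = 0.064). Of 4 tested alveolar type 2 markers, Sftpc fell in AJ lungs relative to LZ2 and LZ3 (19430 ± 1406, n = 3, against 35300 ± 6561, n = 2, SD; difference -0.85, limma adjusted p = 0.015). That call was lost after quantile normalization (-0.17, adjusted p = 0.346), without AJ4 (adjusted p = 0.0713) and without LZ3 (-0.66, adjusted p = 0.19). Of the skeletal muscle, cardiac muscle, adipose, and squamous and cartilage markers, none passed, with list medians of 2.30, 2.61, 1.24 and 1.48 for LZ61 to LZ63 minus LZ22 to LZ25. The summed signal of the cardiac muscle markers was 26244, 7752 and 42923 on LZ61, LZ62 and LZ63 and 2010, 15722, 1941 and 20163 on LZ22 to LZ25. That of the adipose markers was 7431, 1440 and 8759 on LZ61, LZ62 and LZ63 and 1870, 2199, 1718 and 3521 on LZ22 to LZ25. Both were highest on LZ63 and LZ61 among the 42 week arrays. Their part in the values of Mmp9, Timp2 and Lrp1 on those arrays was not tested, and the values of these 3 genes without LZ63 are given above.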

How the data were processed

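Total RNA was extracted with Trizol and labelled with biotin, per the labels' protocols. The authors deposited a table of intensity values for all arrays, which are MAS5 signals per the submitters' processing notes. Neither a MAS5 version nor a genome build is given in the sources used here. The table held 12488 probe sets, and 66 controls were left out. Of the remaining 12422, 10833 had 1 symbol in the platform annotation, 396 had several and 1193 were not listed; 10817 symbols matched RefSeq genes (GRCm38.p6) by Entrez number, and 0 were updated. Scaling to a shared trimmed mean hides a change of most transcripts in 1 direction, and MAS5 makes low values noisy. The number of arrays limits the precision.

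Values were log2-transformed with no pseudocount. The 7453 probe sets with a mean log2 value at or above the 40th percentile, 6.75, a signal of 108.0, were tested in limma 3.58.1 (R 4.3.3, statmod 1.5.0; lmFit, eBayes with trend and robust), two-sided, at 5% false discovery over all of them. The time points formed 1 fit and the 4 title ranges another, each on all 12 arrays. Probe sets under the filter are given by value, and where a difference is printed for one it comes from a fit without the filter. Time differences were also tested by exact two-sided permutation over all splits, where the smallest possible p is 0.00126. The scripts were tested on simulated data.

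All member probe sets are named, with every array's value for the probe set of each gene with the highest mean and the range for others. Of each list, up to 3 genes past the threshold were to be named or, where none passed, the 2 with the smallest p in a comparison; those given in the text are a selection of these. The brightest probe set stood for a gene in a list. The members, lists and alternatives were chosen with earlier results of these data known. The labels do not state that each sample came from its own animal, and the p-values then cover only the spread among these arrays. Alternatives were quantile normalization, equal array medians, other filters, a pseudocount of 28.7, plain eBayes, array weights, run day as a random block, subsets of arrays and each array left out in turn. After seeing the data, these were also applied to Lrp1, Cd68 and Sftpc.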

Additional observations from a re-analysis of the deposited data

Results flagged for a closer look

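Among 32 groups of 4 or more arrays, for each of the 16 probe sets at each time point, 5 (15.6%) held an array far from the others by Dixon's criterion. Chance alone meets it in about 5% of groups only where log2 values are normally distributed. The share over all probe sets was not computed, so the 15.6% is not read as a trait of these genes. Mmp14 read 1289.6 on LZ61, where the other 42 week arrays read 656.2 to 848.4. Timp3 read 8746.6 on LZ62, where the other 42 week arrays read 5521.9 to 6605.4. Timp1 read 385.9 on LZ22 with the probe set 101464_at, below the 732.3 to 1143.4 of the other 42 week arrays. The remaining pair are dim probe sets under the filter, Mmp9 162369_f_at at 1.4 on LZ25 (25.4 to 38.1 on the other 42 week arrays) and Timp1 162107_r_at at 1.4 on AJ4 (17.5 to 43.2 on the other 24 to 26 week arrays).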

How the results depend on the processing

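No paired analysis was possible because the numbers in the titles name samples and are not shared between the groups compared. The count of probe sets called between the time points, 6, was 17 after quantile normalization, 550 with array weights, 1 with run day as a random block (correlation 0.227), 1 at 1% false discovery and 0 in the exact permutation test (1031 under an unadjusted p of 0.05). It was 441 with the AJ arrays only, 3 with LZ2 and LZ3 only, 14 with LZ22 to LZ25 only, 12 with LZ61 to LZ63 only, 1 without LZ22, LZ24 and LZ63, and 4 to 38 with 1 array left out (38 without LZ2, 30 without LZ3, 16 without LZ62, 15 without LZ63). The count between AJ and LZ, 186, was 121 without the filter, 776 with array weights, 312 in a fit of those arrays only and 0 to 374 with 1 array left out (0 without LZ3, 19 without AJ4, 35 without LZ2, 54 without AJ2, 374 without LZ63). The count between LZ61 to LZ63 and LZ22 to LZ25, 112, was 292 with equal medians, 45 without the filter, 23 with plain eBayes, 0 in a fit of those arrays only and 0 to 84 with 1 array left out (0 without AJ2, LZ22, LZ23 or LZ25, and 82 and 84 without LZ61 and LZ62). Leaving out LZ2 or LZ3 leaves 1 array, which limma assumes to vary like the others.

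Some small differences changed sign, with none called, and the cause was not tested. Between time points, the AJ arrays alone gave -0.56 for Mmp12 95339_r_at, -0.128 for Mmp9 and 0.0366 for Timp1. LZ2 and LZ3 alone gave 0.355 for Mmp14 and -0.0174 for Mmp3. LZ22 to LZ25 alone gave -0.00981 for Mmp3 and -0.209 for Mmp9, and LZ61 to LZ63 alone 0.0235 for Mmp14 and 0.0475 for Timp1. Without LZ22, LZ24 and LZ63, Mmp14 was at 0.0292 and Timp1 at 0.0579, and array weights gave -0.016 for Mmp9 and 0.151 for Timp1. With 1 array left out, Mmp9 ranged from -0.0648 to 0.212, Mmp14 from -0.22 to 0.0691 and Timp1 from -0.293 to 0.144. For AJ minus LZ, quantile normalization gave -0.0762 for Mmp11 and 0.111 for Timp3, equal medians -0.09 for Mmp11, and array weights 0.0274 for Timp3. The ranges with 1 array left out were -0.0937 to 0.19 for Mmp11, -0.632 to 0.243 for Timp1 and -0.121 to 0.00569 for Timp3. For LZ61 to LZ63 minus LZ22 to LZ25, array weights gave 0.0648 for Mmp11, and the ranges were -0.184 to 0.158 for Mmp11, -0.0628 to 0.355 for Mmp14, -0.172 to 0.35 for Timp1 and -0.0738 to 0.258 for Timp3. Mmp12 95339_r_at between AJ and LZ passed under the 60th percentile filter (adjusted p = 0.04), plain eBayes (0.0433), array weights (0.0267) and without LZ61 (0.023) or LZ62 (0.0453). The 60th percentile filter left no value for the dimmer probe sets.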
